A study of Mus musculus with 44 samples.

Results

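The RNAs described here were not detected in input RNA of growing C2C12 myoblasts and were detected in it once the cells had differentiated. They are the 113 of 25697 array probes that were not detected on any of the 5 input arrays of day 0 and were detected on all 5 input arrays of day 3 and all 5 of day 6. A probe counted as detected on an array where its deposited detection p-value, which sets its brightness against the negative control beads, was under 0.05. Input is taken here as RNA of the cells without pulldown: the titles of these 15 samples say DNA, while their description and molecule fields say RNA. The rule used the input arrays, so input values are given as a description without a test, and the pulldown arrays, which it did not use, carry the tests.

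C2C12 is an established line of mouse myoblasts. In serum-rich medium (10% serum) these cells divide, and when the medium is changed to 2% horse serum they leave the cell cycle and fuse into multinucleated myotubes. Myogenic transcription factors switch on muscle genes in steps during this process, from early regulators to the contractile proteins and enzymes of the muscle fibre. AUF1, also called hnRNP D, is an RNA-binding protein that attaches to AU-rich stretches of many mRNAs and alters their decay or translation. In an RNA immunoprecipitation, called a pulldown here, lysate is incubated with antibody-coated beads and the RNA that stays on the beads is measured. Control IgG beads show which RNAs stay without a specific antibody.

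The groups were input RNA on days 0, 3 and 6 (5 arrays each), IgG pulldown on days 0 (4 arrays), 2 (3), 4 (4) and 6 (4), and AUF1 pulldown on days 0 (4), 2 (3), 4 (3) and 6 (4), where day 0 is growth medium and the other days count from the change of medium. All groups are the same untreated cell line, none carries an allele or transgene, and separate cultures are not stated for the replicates, so p-values measure the spread between these arrays, which may be technical. Pulldown columns carry experiment numbers 1 to 4. The probes are named by Illumina identifier because the sources used here do not pair them with genes. Muscle regulators, other cell type markers and gene roles were therefore not analysed here, and the labelled cell type was not checked against its markers.

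Across the series, 44.7% to 48.7% of all probes were detected on the input arrays of day 6 and 45.9% to 47.4% on those of day 0. Pulldown arrays ranged more widely, from 24.4% to 46.8%. The 5 pulldown arrays with under 30% were AUF1 day 0 experiment 2, AUF1 day 2 experiments 1 and 2, AUF1 day 4 experiment 3 and IgG day 4 experiment 2. These dim arrays also detected few of the switched-on probes, and the part of array brightness in the results below was not tested.

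In input RNA the switched-on probes moved from the lower to the upper part of the array's ranking. Their mean level on day 0, in log2 units after background correction and normalization, lay between 4.24 and 4.60, near the level of no signal. On day 3 the median over the 113 probes was 5.90, with a range from 4.83 to 9.28, and on day 6 it was 6.21, with a range from 4.83 to 9.71. Ranked against all probes of the same array, the median member stood at percentile 30.4 on day 0, 68.5 on day 3 and 71.2 on day 6. Since day 0 was below detection, folds are lower bounds, computed against the lowest signal that counted as detected. The rise was at least 2.31-fold on day 3 for the median probe and at least 2.86-fold on day 6. Fewer cells with an RNA and less of it per cell cannot be told apart in RNA of whole cultures. The rise reached at least 4-fold in 31 probes on day 3 and 42 on day 6, and at least 16-fold in 5 and 6 probes.

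Most members therefore had modest levels, and the rule's threshold ran through a dense field of similar probes. ILMN_1221787, just inside, had a highest detection p-value of 0.0489 on days 3 and 6 and levels of 5.15 on both days. ILMN_2595651, just outside, missed on 1 array at 0.0501 with levels of 5.17 and 5.07. On the day 0 side, ILMN_2941052 was inside at a lowest detection p-value of 0.0501 and ILMN_2789651 was outside at 0.0489, although the latter reached 7.47 on day 3 and 7.50 on day 6. A further 35 probes missed by 1 array of day 3 or 6 and 104 by 1 array of day 0. Of the 113 members, 57 also stayed under a detection p-value of 0.01 on all 10 arrays of days 3 and 6.

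The brightest member was ILMN_1234662. It read 4.21, 4.30, 4.70, 4.32 and 4.63 on the input arrays of day 0, 10.05, 10.54, 8.97, 8.30 and 8.52 on day 3, and 10.25, 10.77, 9.81, 8.43 and 9.31 on day 6. Its bound was the highest of the 113, at least 24-fold on day 3 and at least 32.5-fold on day 6, and its arrays spread widely within each later day (SD 0.98 and 0.90, n = 5). ILMN_1238309 read 8.60, 8.62, 8.11, 8.0 and 7.78 on day 3 and 9.83, 9.56, 9.64, 9.13 and 9.28 on day 6, against 4.24 to 4.60 on day 0. Here every day 6 array stood above every day 3 array. ILMN_2765759 read 9.22 ± 0.37 (SD, n = 5) on day 3 and 9.10 ± 0.58 (SD, n = 5) on day 6, a difference smaller than the spread within either day. ILMN_1234857 was also near its day 6 level on day 3, with 8.79 ± 0.54 (SD, n = 5) and 9.02 ± 0.15 (SD, n = 5).

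Some members had higher levels on day 6 than on day 3. Both days entered the rule, so these values are a description. In 14 of the 113 members every day 6 array stood above every day 3 array, and in 0 every day 6 array stood below. Of the 9933 probes detected on all 10 arrays of these days, 1.59% were above and 1.3% below in this way. The median difference of the members was 0.32 on the log2 scale and that of the 9933 probes -0.01. Input columns carry experiment numbers 1 to 4, and 1 number repeats within each day. Averaged by experiment number, 42 members were higher on day 6 under all 4 numbers and 8 were lower under all 4. Same-numbered input arrays of the 2 days are not taken as pairs, since their deviations correlated at -0.32 to 0.51. Of the 9933 probes, 1131 were higher and 1308 lower in this way.

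ILMN_1245118 had the largest difference between the later days among the named probes. Its input arrays read 5.12, 4.98, 5.47, 5.83 and 5.49 on day 3 and 6.76, 6.66, 7.76, 7.65 and 7.71 on day 6. The days did not overlap, and the means differed by 1.93. ILMN_2971142 went from 5.68 ± 0.48 to 7.32 ± 0.44 (SD, n = 5 each), again without overlap. ILMN_2644415 went from 6.04 ± 0.88 to 7.78 ± 0.50 (SD, n = 5 each), and its day 6 arrays also stood above those of day 3. At the other end, ILMN_2628647 had values of 8.28, 8.06, 6.84, 6.32 and 6.37 on day 3 and 7.17, 7.15, 5.32, 5.76 and 5.35 on day 6. Its days overlap as groups. Averaged by experiment numbers 1 to 4, not taken as pairs, day 6 minus day 3 was -1.11, -0.30, -0.78 and -1.01.

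More members were detected in the pulldowns as the days went on. With IgG beads, 18.4% ± 5.1 (SD, n = 4) of the members were detected on day 0, 35.7% ± 4.5 (SD, n = 3) on day 2, 52.9% ± 23.8 (SD, n = 4) on day 4 and 60.0% ± 7.7 (SD, n = 4) on day 6. With AUF1 beads the shares were 10.4% ± 2.9 (SD, n = 4), 12.4% ± 8.7 (SD, n = 3), 31.9% ± 17.9 (SD, n = 3) and 43.8% ± 16.4 (SD, n = 4). Over the same days the share of all probes detected went from 42% to 41.2%, 40.1% and 43.1% with IgG and from 36.7% to 29.7%, 32.4% and 39.9% with AUF1. Single arrays detected from 25.6% to 46.8% of all probes with IgG and from 24.4% to 45.5% with AUF1. The part of array-wide detection in the members' shares was not tested.

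Single arrays showed how far the groups overlapped. The 4 IgG arrays of day 0 detected 27, 13, 22 and 21 members in the order of experiments 1 to 4, and those of day 6 detected 70, 72, 55 and 74, with no overlap between the days. The day 4 arrays with IgG detected 68, 21, 67 and 83. The array with 21 was the dim one of experiment 2, and without it the day 4 mean was 64.3%. The AUF1 arrays of day 0 detected 11, 8, 12 and 16 members and those of day 6 detected 58, 24, 49 and 67. These groups did not overlap either, although experiment 2 of day 6 stood far below the others. Leaving out its 2 dim arrays left AUF1 day 2 with 1 array, at 22.1%, and the dim array of day 4 left out gave 38.5%. Taken by probe, 7 members were on all IgG arrays of day 0, 27 on all of day 2, 20 on all of day 4 and 49 on all of day 6, where 30.9%, 35.1%, 22.9% and 32.1% of all 25697 probes were. With AUF1 the same counts were 5, 3, 16 and 20, beside 26%, 20.7%, 22.2% and 29% of all probes.

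Some members were detected in pulldowns of growing cells, before any input array detected them. On day 0, where no input array detected any member, 39 of 113 were seen on at least 1 of the 8 pulldown arrays, 15 on at least 4 and 2 on all 8. The other 74 were absent from every day 0 pulldown array, and 58 of these were detected on at least 1 later pulldown array. Over all days 16 members were detected on no pulldown array, 15 on 1 or 2 arrays, and none on all 29. Probes never detected in input were detected on 1.2% to 2.0% of pulldown readings, by group means. Those probes had to be undetected on days 3 and 6 too, unlike the members. They are therefore not a like comparison for the members' day 0 shares of 10.4% and 18.4%.

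ILMN_1213139 and ILMN_2756950 were the members detected on all 8 day 0 pulldown arrays, and they then behaved differently. ILMN_1213139 read 6.55, 6.68, 6.60 and 5.87 with IgG on day 0 and 6.48, 5.77, 6.69 and 6.08 on day 6. With AUF1 it read 5.82, 7.02, 6.73 and 6.30 on day 0 and 6.27, 6.66, 6.63 and 6.23 on day 6. The days overlap in both pulldowns, with differences of -0.17 ± 0.32 and -0.02 ± 0.32 (SE, limma, adjusted p = 0.999 and 0.991). Its rank in the array was near percentile 77 with both kinds of beads on day 0, against 45 in input of that day. ILMN_2756950 read 5.20, 5.41, 5.45 and 5.19 with IgG on day 0 and 7.05, 7.15, 7.66 and 7.76 on day 4, a rise of 2.09 ± 0.45 (SE, limma, adjusted p = 0.00884). With AUF1 its day 4 rise was 1.85 ± 0.48 (SE, limma, adjusted p = 0.0491), and by day 6 neither difference from day 0 passed the test (1.25 with IgG, 0.33 with AUF1).

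The opposite class was clear in input and not detected in pulldowns. ILMN_3074890 read 6.15, 6.65, 6.72, 5.97 and 5.63 in input on day 3 and 7.12, 7.17, 7.63, 6.69 and 6.86 on day 6, at least 5.29-fold above day 0. On the 29 pulldown arrays it was never detected, and its day 6 values were 4.30, 4.32, 4.21 and 4.30 with IgG and 4.25, 4.31, 4.27 and 4.49 with AUF1. ILMN_2913563 and ILMN_2802711, at 6.19 and 6.06 in input on day 6, were also detected on no pulldown array. Levels of input and pulldown were normalized separately, so only rank and detection are set side by side: ILMN_3074890 stood at percentile 78.4 in input and 11.8 in IgG on day 6.

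Members that reached a higher level in input were detected more often in the pulldowns of later days. The members were divided by their mean input level on day 6 into 4 groups of 28, 28, 28 and 29 probes. In the brightest group (7.35 to 9.71), the share of IgG readings detected was 13.8% at the start and 63.2%, 81.9% and 93.1% on the later days. In the next group (6.21 to 7.34) it went from 17% to 71.4% between days 0 and 6, and in the one below (5.72 to 6.19) from 8.93% to 40.2%. In the dimmest group (4.83 to 5.72) the share was 33.9% on day 0 and again 33.9% on day 6. With AUF1 the shares of day 0 lay between 8.04% and 12.5% in all 4 groups. On day 6 they were 75.9% in the brightest group, 49.1% and 23.2% in the middle groups and 25.9% in the dimmest. Of the 16 members seen on no pulldown array, 6 were in the dimmest group and 9 in the one above it, which leaves 1 in the next and 0 in the brightest. Across the 113 members, the input level on day 6 and the IgG rank on day 6 correlated at r = 0.53 (rho = 0.56), and IgG and AUF1 ranks on day 6 at r = 0.91 (rho = 0.92). These are descriptions across probes, which share arrays, and not tests.

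The day a member first appeared, taken as the first day with detection on more than 50% of the arrays, was earlier with IgG. With IgG, 17 members were present on day 0, 23 first on day 2, 22 on day 4 and 9 on day 6, and 42 never met this mark. With AUF1 the numbers were 10, 4, 18, 14 and 67. Of the 71 members that met it in at least 1 kind of pulldown, 18 did so on the same day, 51 later with AUF1 or never, and 2, ILMN_2513870 and ILMN_2669062, earlier with AUF1. These counts were made for members only, so they do not show an order particular to the members. The part of the overall detected share in this order was not tested. In all 14 pairs of AUF1 and IgG arrays of the same day and experiment, the AUF1 array detected fewer members and also fewer probes of all kinds. Over these pairs, 364 member detections were shared, 329 were in IgG alone and 31 in AUF1 alone, again counted for members only.

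A looser form of the rule, without an intermediate day, recovered part of the list from pulldowns alone. Among all probes, 102 (0.397%) were absent from every IgG array of day 0 and present on every one of day 6, and 30 of them were members, 29.4% of that list and 26.5% of the 113. With AUF1 the rule found 70 probes (0.272%), of which 11 were members, 15.7% of the list and 9.73% of the 113. In both pulldowns at once it found 28 probes (0.109%), and 8 were members. Requiring day 4 as well left 19 probes with IgG (0.0739%) and 23 with AUF1 (0.0895%). Of these, 7 and 6 were members, 6.2% and 5.31% of the 113.

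Changes of level within each pulldown were tested with limma on all 29 pulldown arrays. Only probes detected on at least 3 of them were tested, 13812 probes with 82 of the 113 members. Members that are detected only late pass this filter through the days on which they are high, so the counts below are read beside a fit on all probes. With IgG, 4 members rose by day 2, where 0.652% of all tested probes were called higher, 12 by day 4 (1.35%) and 20 by day 6 (1.94%). None was called lower, where 0.203%, 0.355% and 0.384% of all tested probes were. With all 25697 probes and all 113 members tested, the numbers were 3, 10 and 19. The share of all probes called in that fit is not given here, so these numbers stand without a background. The median change of the tested members by day 6 was 0.69, or 0.40 with undetected groups set at their bound, and that of all tested probes -0.02.

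With AUF1 the counts were of the same order. Of the tested members 3 rose and 1 fell by day 2 (0.941% and 0.775% of all tested probes), 17 rose by day 4 (1.27%) and 16 by day 6 (4.14%), with none called lower on the later days (0.42% and 3.33%). Without the filter 4, 11 and 15 members were called, again without a share over all probes beside them. The median change by day 6 was 0.43, or 0.09 with bounds, beside 0.01 for all tested probes. Of the 20 members that rose by day 6 with IgG and the 16 with AUF1, 15 were shared, 75% of the first list and 93.8% of the second. The brightest group by input level held 17 of the 20 and 14 of the 16. Over the later days and both pulldowns 32 of the 82 tested members were called higher at least once, where 5.18% of all tested probes were.

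These counts depend on settings to different degrees. With median scaling the IgG counts were 0, 21 and 24 on days 2, 4 and 6 and the AUF1 counts 0, 0 and 4, and that scaling moved the median of all probes by -0.53 on day 2 and -0.33 on day 4 with AUF1. The IgG day 4 count was 20 without the dim experiment 2 array of that day, 23 without all 5 dim arrays and 21 (2.55% of all tested probes called higher) with the experiment number as a block, which pairs these arrays. The IgG day 2 count was 2 without experiment 1 or experiment 2 of day 2. The AUF1 day 2 count was 2 without experiment 2 of day 2. The AUF1 day 4 count was 9 without experiment 1 of day 0 or experiment 3 or 4 of day 4, and 10 without experiment 3 or 4 of day 0.

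ILMN_1238309 had the largest rise with IgG and one of the most stable. Its IgG arrays read 4.60, 4.56, 4.51 and 4.50 on day 0, then 7.09, 7.49 and 7.19 on day 2. They read 8.30, 8.94, 8.68 and 8.76 on day 4 and 7.81, 7.88, 8.36 and 8.22 on day 6. Its AUF1 arrays started at 4.44, 4.49, 4.32 and 4.45, read 6.60, 7.49 and 6.93 on day 2 and 7.83, 8.42 and 8.28 on day 4, and ended at 7.17, 7.03, 8.57 and 8.29. No later array overlapped day 0 in either pulldown. The day 6 change was 3.52 ± 0.27 with IgG (SE, limma, adjusted p = 3.03e-09), at least 9.75-fold. It was 3.33 ± 0.27 with AUF1 (SE, limma, adjusted p = 9.9e-09), at least 6.57-fold. Under 13 alternatives each, no day 6 call was lost.

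ILMN_1234857 rose by 2.54 ± 0.31 with IgG (SE, limma, adjusted p = 8.9e-06) and by 2.17 ± 0.31 with AUF1 (SE, limma, adjusted p = 6.78e-05) by day 6. It was undetected on day 0, so these are rises of at least 4.40-fold and 2.73-fold. Its AUF1 values were 4.28, 4.27, 4.37 and 4.38 on day 0 against 6.46, 6.48, 6.85 and 6.19 on day 6, without overlap. ILMN_2765759, already detected on 7 of the 8 day 0 pulldown arrays, still rose by 2.40 ± 0.39 with IgG (SE, limma, adjusted p = 0.000372) and by 1.79 ± 0.39 with AUF1 (SE, limma, adjusted p = 0.00447). Its AUF1 array of experiment 2 on day 0 read 6.67, inside the day 6 range of 6.20 to 8.29, so only the IgG days are free of overlap. ILMN_1237670 was a dim probe in input, at 6.08 on day 6, and rose by 2.39 ± 0.42 with IgG and 2.29 ± 0.42 with AUF1 (SE, limma, adjusted p = 0.00102 and 0.00109), at least 4.06-fold and 3.36-fold.

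ILMN_1234662, the brightest probe in input, was uneven in the pulldowns. With AUF1 it read 4.29, 4.48, 4.30 and 4.76 on day 0, 7.93, 8.58 and 10.04 on day 4 and 7.92, 7.08, 6.18 and 8.48 on day 6. With IgG it read 7.43, 4.43, 8.34 and 9.22 on day 4 and 7.83, 8.41, 4.35 and 7.94 on day 6. Experiment 2 of day 4 and experiment 3 of day 6 thus read inside the day 0 range of 4.30 to 4.54, and the other IgG arrays of these days far above it. These 2 arrays detected 25.6% and 35.7% of all probes, the fewest of their groups. Their lowest detected signals were 6.04 and 5.04, so the probe's level there is known only to lie below them. Its AUF1 day 4 rise of 4.39 ± 0.95 (SE, limma, adjusted p = 0.0106) was at least 14.0-fold and was lost under 2 of 12 alternatives. Its day 6 call with AUF1 (2.96 ± 0.88 SE, at least 5.17-fold, limma, adjusted p = 0.0386) was lost under 10 of 13, with adjusted p from 0.00777 to 0.42, and its IgG change of 2.69 on day 6 did not pass (limma, adjusted p = 0.14).

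ILMN_2774160 came late in both pulldowns. It was high in input from day 3 on, at 8.79 ± 0.57 (SD, n = 5). Its IgG arrays nonetheless read 4.57, 4.30, 4.48 and 4.71 on day 4 and reached 5.17, 5.19, 5.93 and 6.24 on day 6. The AUF1 arrays of day 6 read 5.32, 4.89, 5.47 and 5.85. The day 6 rises were 1.33 ± 0.21 with IgG and 1.05 ± 0.21 with AUF1 (SE, limma, adjusted p = 0.000252 and 0.00203), at least 1.80-fold and 1.26-fold. ILMN_1220086, at 8.71 in input on day 6, read between 4.71 and 5.09 with IgG and between 4.29 and 5.02 with AUF1 that day. It was detected on 0 IgG arrays of day 0 and on all 4 of day 6. With AUF1 these numbers were 0 and 1. Neither change of level from day 0 to day 6 was called.

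After normalization ILMN_2806065 was highest on day 2 in both pulldowns. Its IgG means were 5.65, 7.08, 6.77 and 6.07 on days 0, 2, 4 and 6. Before normalization its mean signals on these days were 108.6, 177.1, 174.1 and 127.6 with IgG. With AUF1 they were 95.7, 106.3, 108.4 and 108.6, without a peak on day 2, where 2 of the 3 arrays were dim. It read 5.75, 5.14, 6.31 and 6.51 on the AUF1 arrays of day 0, 7.54, 8.33 and 7.84 on day 2, 7.49, 6.93 and 7.41 on day 4 and 5.28, 5.12, 7.06 and 6.29 on day 6. Its day 2 rise was 1.98 ± 0.43 (SE, limma, adjusted p = 0.0134, from 0.00297 to 0.673 over 12 alternatives, 3 of which lost the call), and its day 6 difference was 0.01 ± 0.40. Among members it was also one of those with the lowest change in input between days 3 and 6, from 8.89 ± 0.76 to 7.93 ± 0.31 (SD, n = 5 each). ILMN_1236869 was the member called lower, with 5.23, 5.61, 5.75 and 5.69 with AUF1 on day 0 and 4.45, 4.39 and 4.39 on day 2. That change of -1.16 ± 0.28 (SE, limma, adjusted p = 0.0276) was lost under 6 of 12 alternatives, and 2 of the 3 day 2 arrays were dim. No fold is given, since the probe was undetected on day 2 and its day 0 mean lay below the bound set by the lowest detected signal there.

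The AUF1 and IgG pulldowns were then compared on each day. On day 0, 0 of 82 tested members differed (limma, 3 at unadjusted p under 0.05), where 0.145% of all tested probes did. On day 2 the count was 1 lower and 0 higher with AUF1 (1.55% and 0.579% of all tested probes), on day 4 again 1 lower and 0 higher (0.413% and 0.275%), and on day 6 it was 0 (0%; 6 members at unadjusted p under 0.05). With the experiment number as a block, which pairs the arrays on days 0, 2 and 6, the counts were 0 higher and 1 lower on day 0 (6.49% and 6.28%), 1 higher and 8 lower on day 2 (11.4% and 14.7%) and 0 on day 6. With median scaling, which moved the median of all probes by -0.85 on day 2 and -0.73 on day 4, the counts were 3 and 6, all lower. Whether the change from day 0 to day 6 differed between AUF1 and IgG was tested as an interaction, with 0 members called (0%; limma, 1 at unadjusted p under 0.05).

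Over the mean of the 4 days, 11 members were lower with AUF1 and 0 higher, against 11.8% and 9.33% of all tested probes. As a share of the 82 tested members the lower calls are near that background. These 11 were detected on 0 to 6 of the 14 AUF1 arrays and on 7 to 13 of the 15 IgG arrays, and 4 of them, with under 3 AUF1 arrays, could not have passed the filter without the IgG arrays, where they are high. With all 113 members tested the count was 9 lower and 0 higher, again without a share over all probes. The count was 31 with median scaling, all lower, where the median of all probes moved by -0.56. It was 6 without IgG day 2 experiment 1 and 7 without AUF1 day 4 experiment 3. With the experiment number as a block, 9 members were higher and 22 lower, beside 22.8% and 24.5% of all tested probes. The numbers are not taken as pairs for this mean. None of the 11 was detected on an AUF1 array of day 0 or day 2, and 4 of them had risen by day 6 with IgG. ILMN_2867771 was the one below the IgG mean of its day on all 14 AUF1 arrays, by -0.42 ± 0.12 on average (SE, limma, adjusted p = 0.0157, from 0.00562 to 0.0415 over 34 alternatives and 0.0195 without the filter, which it passed through IgG alone). AUF1 values ran from 4.27 to 4.58 with detection on 0 of 14 arrays, and IgG values from 4.29 to 5.57 with detection on 9 of 15, so the ranges overlap. No fold is given, since its IgG mean of 4.84 lay below 5.24, the mean of the lowest detected signals on the AUF1 arrays.

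The calls of single days rested on few arrays. ILMN_2502798 read 4.42, 4.21 and 4.47 with AUF1 on day 2 and 6.10, 5.76 and 5.35 with IgG, without overlap (-1.37 ± 0.34 SE, limma, adjusted p = 0.0376), a difference of at least 1.08-fold since AUF1 was undetected. The call was lost under 6 of 11 alternatives, among them leaving out experiment 1 or 2 of either group. ILMN_1219423 read 4.59, 4.48 and 4.95 with AUF1 on day 4 and 6.29, 6.42, 5.58 and 5.56 with IgG (-1.29 ± 0.28 SE, limma, adjusted p = 0.0363), also without overlap. That call was lost under 4 of 12 alternatives, among them leaving out AUF1 day 4 experiment 1 or 3 or IgG day 4 experiment 1. Leaving out IgG day 4 experiment 2 raised the count of members lower on day 4 to 4.

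The mirror group, 55 probes detected on every day 0 input array and on no input array of days 3 and 6, is the other side of the change in input. With IgG their detected shares were 67.7%, 45.5%, 47.7% and 60.0% over the 4 days, so on day 6 the mean share was 60.0% for both the switched-off and the switched-on probes. With AUF1 the switched-off shares went through 53.2%, 15.2%, 18.8% and 42.3%. Of the 51 tested switched-off probes, 1 fell by day 6 with IgG and 3 with AUF1. Of all tested probes, 0.384% and 3.33% were called lower. The members that rose numbered 20 and 16, where 1.94% and 4.14% of all tested probes were called higher. The difference between the 2 groups of probes was not tested, since both were chosen on input values.

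Probes that rose strongly from a detectable start are the other natural comparison. These are 135 probes detected on all 15 input arrays and higher by at least 2 log2 units on day 3. Of the 134 tested, 46 rose by day 6 with IgG and 53 with AUF1, beside 1.94% and 4.14% of all tested probes. Their median changes were 0.94 and 0.93, where the tested members had 0.69 and 0.43. Between the antibodies on the mean of 4 days, 14 of the 134 were higher and 17 lower with AUF1. Of all tested probes, 9.33% were higher and 11.8% lower, and members had 0 and 11. These counts come from the fit without a block, and with the experiment number as a block members had 9 and 22. The difference between these groups of probes was not tested.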

How the data were processed

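Signal intensity and a detection p-value for 25697 probes on 44 Illumina bead arrays were taken from the deposited table, not normalized per the file headers. The submitters' processing notes name GenomeStudio 1.6.0. The probes were chosen, and all lists and tests set, with earlier results of these data known. Column names gave group and experiment number; columns were assigned to groups.

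With limma 3.58.1 in R 4.3.3, intensities were background corrected (normexp, negative controls inferred from detection p-values, offset 16), quantile normalized and taken to log2, separately for 29 pulldown and 15 input arrays. A probe entered a test if 3 or more pulldown arrays detected it (13812 probes). The fit had 1 mean per group, and Benjamini-Hochberg adjustment ran over all of these. Array number and signal over background limit precision. A planned fit of input day 6 against day 3 is not reported, because its arrays chose the members.

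Named probes were members with the highest input day 6 level. Per comparison, at most 3 called rises and 3 called falls of greatest size with 1 sign on every array were added. Those nearest the rule's threshold, and those on most day 0 or no pulldown arrays, were also named. So were those with the highest and the lowest input change from day 3 to 6. Others are named where a count is small, after their values were seen. Fits were checked on simulated data.

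Same-numbered experiments were taken as pairs where every correlation of deviations exceeded 0.1: AUF1 and IgG on days 0 (0.26 to 0.77), 2 (0.11 to 0.48) and 6 (0.16 to 0.84), and IgG days 2 and 4 against day 0 (from 0.50 to 0.73). Gene names, gene lists, markers and promoters were not analysed here.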

Additional observations from a re-analysis of the deposited data

Results flagged for a closer look

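In 5 of 100 tested groups of named probes, 1 array lay far from the others of its group relative to the group's range, and chance flags about 1 in 20 groups. ILMN_2765759 read 7.83 on IgG day 4 experiment 2, above the other day 4 IgG arrays at 7.68 to 7.70. ILMN_2621667 read 6.35 on the same array, above 5.45 to 5.58 on the others; this array was the dim one, with 25.6% of probes detected. ILMN_2650667 read 5.04 on IgG day 4 experiment 1, below 6.07 to 6.11. ILMN_1213139 read 5.87 on IgG day 0 experiment 4, below 6.55 to 6.68. ILMN_1234857 read 7.85 on the input day 3 array of experiment 3, below 8.78 to 9.16. The part of these arrays' brightness in the values was not tested.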

How the results depend on the processing

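With median scaling the counts of members called were 0 on day 2 and 21 on day 4 with IgG, 0, 0 and 4 on days 2, 4 and 6 with AUF1, and 3, 6 and 31 for AUF1 against IgG on day 2, on day 4 and over 4 days. Without the detection filter AUF1 day 4 gave 11 and AUF1 against IgG on day 2 gave 0, with no share over all probes given. With a replicate block for the experiment the counts were 21 and 32 for IgG days 4 and 6, all higher, where 2.55% and 3.44% of all tested probes were. They were 7 for AUF1 day 2 (6 higher and 1 lower, beside 2.83% and 2.88% of all tested probes) and 27 for AUF1 day 6 (all higher, beside 7.15%). For AUF1 against IgG they were 1 and 9 on days 0 and 2, 23 on day 4 (8 higher and 15 lower, beside 12.3% each way) and 31 over 4 days (9 higher and 22 lower, beside 22.8% and 24.5%). The numbers are not taken as pairs in the comparisons of AUF1 days, of IgG day 6, of day 4 or of the 4-day mean, and the block moved no other count by over 1.5 times. Without the 5 dim arrays IgG day 4 gave 23 and AUF1 against IgG gave 0 on days 2 and 4. Leaving out 1 array at a time gave 2 to 4, 8 to 20 and 16 to 20 for IgG days 2, 4 and 6, 2 to 5, 9 to 18 and 12 to 21 for AUF1, 0 to 2 and 0 to 4 for AUF1 against IgG on days 2 and 4, and 6 to 15 over 4 days; the day 0, day 6 and interaction counts were 0 throughout. Skipping background correction moved no count by over 1.5 times. Of 294 values of called changes of named probes under alternatives, 248 kept their call, 46 lost it and 0 reversed, and 9 of 22 changes never lost it. The causes were not tested.

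Alternatives for the detected share were chosen after seeing the data. At a detection p-value under 0.01, the share of members detected was 10.2% on IgG day 0 and 46.5% on IgG day 6, and 5.53% and 34.1% with AUF1. With the 57 members that stayed under 0.01 in input, IgG day 6 gave 78.1%. Members near the threshold are dim, and a probe not detected has only a bound.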
